A study of Homo sapiens with 4 samples.

Results

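FOXO transcription factors and a short set of genes known as their targets were described in SW1990 cells after erianin. The set was given by name. It holds the factors FOXO1, FOXO3 and FOXO4 and the target genes CCNG2, BCL6, TXNIP, SESN3, CITED2, FBXO32 and TRIB2. All 10 symbols had a gene ID in the deposited tables, which list 25798 gene IDs. RNA had been sequenced in 4 libraries from SW1990, a human cell line long established from a pancreatic adenocarcinoma and labelled wild type. In 2 libraries the cells had received 100 nM erianin, a plant bibenzyl, for 48 h, and in the other 2 they had received DMSO, the solvent, for 48 h. The study's title names AKT and ASK1 as targets of erianin, so the comparison bears on genes that act after AKT. The labels do not state whether replicates came from separate cultures, and the p-values below rest on a spread between libraries that may be technical. All values come from 1 cell line, 1 dose and 1 time.

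FOXO factors are forkhead proteins that bind short DNA elements and switch on genes of cell cycle arrest, oxidant defence, protein turnover and cell death. AKT phosphorylates them, after which 14-3-3 proteins hold them outside the nucleus and their target genes are transcribed less. Many FOXO targets act back on growth factor signalling. RNA levels do not measure phosphorylation or the place of a protein in the cell.

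The forkhead element was searched in promoter sequences from RefSeq (GRCh38.p14), which run from 250 bases before to 50 bases after an annotated transcription start. The table held 16 such windows for 9 of the 10 genes, and FBXO32 was not matched. The letters searched were GTAAACA on both strands. They were found in 3 of the 16 windows, which belong to TXNIP, TRIB2 and FOXO4, and in 3.42% of all 35116 windows. The longer form GTAAACAA, which contains the shorter one, was found in 2 of the 16 windows, of TXNIP and TRIB2, and in 0.954% of all windows. The insulin response form CAAAACAA was found in no window of the 9 genes and in 1.68% of all windows. The stretches that hold the element are shown because TXNIP, TRIB2 and FOXO4 are among the genes described most closely here. They are written on the strand of the gene with the element in capitals. The TXNIP stretch is chr1:145996630-145996779 on the minus strand, with the element at bases -124 to -117 counted from the start. The TRIB2 stretch is chr2:12716686-12716835 on the plus strand, with the element on the opposite strand at bases -250 to -243. The FOXO4 stretch is chrX:71095863-71095892 on the plus strand, with the element at bases 24 to 30 of the transcribed part. That RefSeq start lies before the start that GENCODE 29 gives for the gene.
TXNIP: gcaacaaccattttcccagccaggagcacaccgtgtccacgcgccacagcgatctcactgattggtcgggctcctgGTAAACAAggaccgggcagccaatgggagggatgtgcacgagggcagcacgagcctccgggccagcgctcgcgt
TRIB2: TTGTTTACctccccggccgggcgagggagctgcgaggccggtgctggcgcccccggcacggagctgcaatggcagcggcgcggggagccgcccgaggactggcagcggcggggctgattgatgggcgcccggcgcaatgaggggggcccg
FOXO4: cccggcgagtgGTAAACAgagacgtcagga

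A match is a description of letters and does not show that a FOXO protein binds there. Over the genes tested, the 422 with GTAAACA in a promoter window had a median log2 fold change of -0.11 (erianin over DMSO) and a median transcript GC content of 46.4%. The 11189 genes with a window but without these letters had a median of -0.02 and a GC content of 49.0%. After a correction that removes, library by library, the dependence of the counts on GC content and transcript length, the median of the 422 genes was -0.03.

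The levels of the genes spanned a wide range. They are given in FPKM, the authors' value scaled by transcript length and library size, summed over the rows of a gene ID, as the mean over the 4 libraries. CITED2, a partner of the coactivators CBP and p300, had the highest level, 49.0 FPKM. TXNIP, an inhibitor of thioredoxin and of glucose uptake, followed at 14.1 FPKM, and FBXO32, the F-box protein atrogin-1 of a ubiquitin ligase, at 7.38 FPKM. The ranges of these 3 genes over the libraries did not overlap each other or that of the next gene. BCL6 at 2.52 FPKM, FOXO4 at 2.35, TRIB2 at 1.48 and CCNG2 at 1.40 came next, and in this run each neighbouring pair had overlapping ranges. FOXO3 had a lower mean, 0.913 FPKM, and its range overlapped that of TRIB2 but not that of CCNG2. FOXO1 followed at 0.38 FPKM. SESN3, a sestrin that restrains mTORC1, was close to the limit of detection at 0.04 FPKM, with 24 and 22 estimated counts in erianin and 34 and 31 in DMSO. Taken by gene ID, FOXO4 therefore had the highest level per length of the 3 factors. The FOXO3 level leaves out FOXO3B, a near copy under its own gene ID at 0.877 FPKM, which may hold reads of FOXO3.

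The libraries held 63336545 and 59923935 estimated counts in erianin and 63254725 and 60798427 in DMSO. The pancreatic carcinoma markers KRT7, KRT8, KRT18, KRT19, EPCAM, CDH1 and MUC1 were detected in every library. They summed to 13100 and 15000 CPM (counts scaled to a library of 1000000) in erianin and 12200 and 12500 CPM in DMSO. The keratins made up most of these sums, KRT8 alone with 5640 and 6530 CPM in erianin and 5250 and 5430 CPM in DMSO. EPCAM had only 6.05 and 3.73 CPM in erianin and 4.94 and 2.39 CPM in DMSO. MUC1 had 3.19 and 5.15 CPM in erianin and 4.09 and 2.8 CPM in DMSO. Of 11 markers of fibroblasts, blood and endothelium, 9 had a gene ID. They summed to 7.35 and 10.4 CPM in erianin, against 34.9 and 9.74 CPM in DMSO. Of these 9, 3 were at 0 in erianin replicate 1 and 3 in erianin replicate 2. In DMSO, 0 of the 9 were at 0 in replicate 1 and 2 in replicate 2. DCN of fibroblasts and PTPRC of blood cells were at 0 in both erianin libraries, and DCN stood at 6.03 and 0.128 CPM in DMSO. The fibroblast markers COL1A1, COL1A2 and LUM were present in every library. COL1A1 had 2.92 and 3.42 CPM in erianin, against 9.27 and 3.22 CPM in DMSO. COL1A2 had 3.50 and 4.79 CPM in erianin, against 7.36 and 4.54 CPM in DMSO. LUM had 0.11 and 0.432 CPM in erianin, against 1.82 and 0.577 CPM in DMSO. COL3A1 had 0 and 0.216 CPM in erianin, against 8.83 and 0.353 CPM in DMSO. The part of other cell types in the results below was not tested. GC-rich genes tended to have higher fold changes, most in erianin replicate 2. Across 7968 genes, 10 more percentage points of GC went with 0.0897 more on the log2 scale in erianin replicate 1 and with 0.276 more in erianin replicate 2, each set against the average of the DMSO libraries.

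None of the 10 genes passed the test for a difference between erianin and DMSO. The test was edgeR's quasi-likelihood test with Benjamini-Hochberg adjustment over 17090 genes at 0.05. DESeq2 and limma-voom called 0 of the 10 as well, though DESeq2 gave SESN3 no adjusted p. Of the 10, 0 had an unadjusted edgeR p under 0.05. Over all genes 0.041% passed, and 8.1% had an unadjusted p under 0.05. All 10 passed the filter on low counts. Of the 10 log2 fold changes, 6 lay below 0, against 51.3% of all genes, and their median was -0.19, against -0.01 for all genes. In 5 of the 10 both erianin libraries were lower than both DMSO libraries, as in 24.4% of all genes, and in 0 of the 10 both were higher, as in 21.7% of all genes. In bulk RNA, fewer cells that express a gene and less RNA per cell cannot be told apart.

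**Figure D1:**
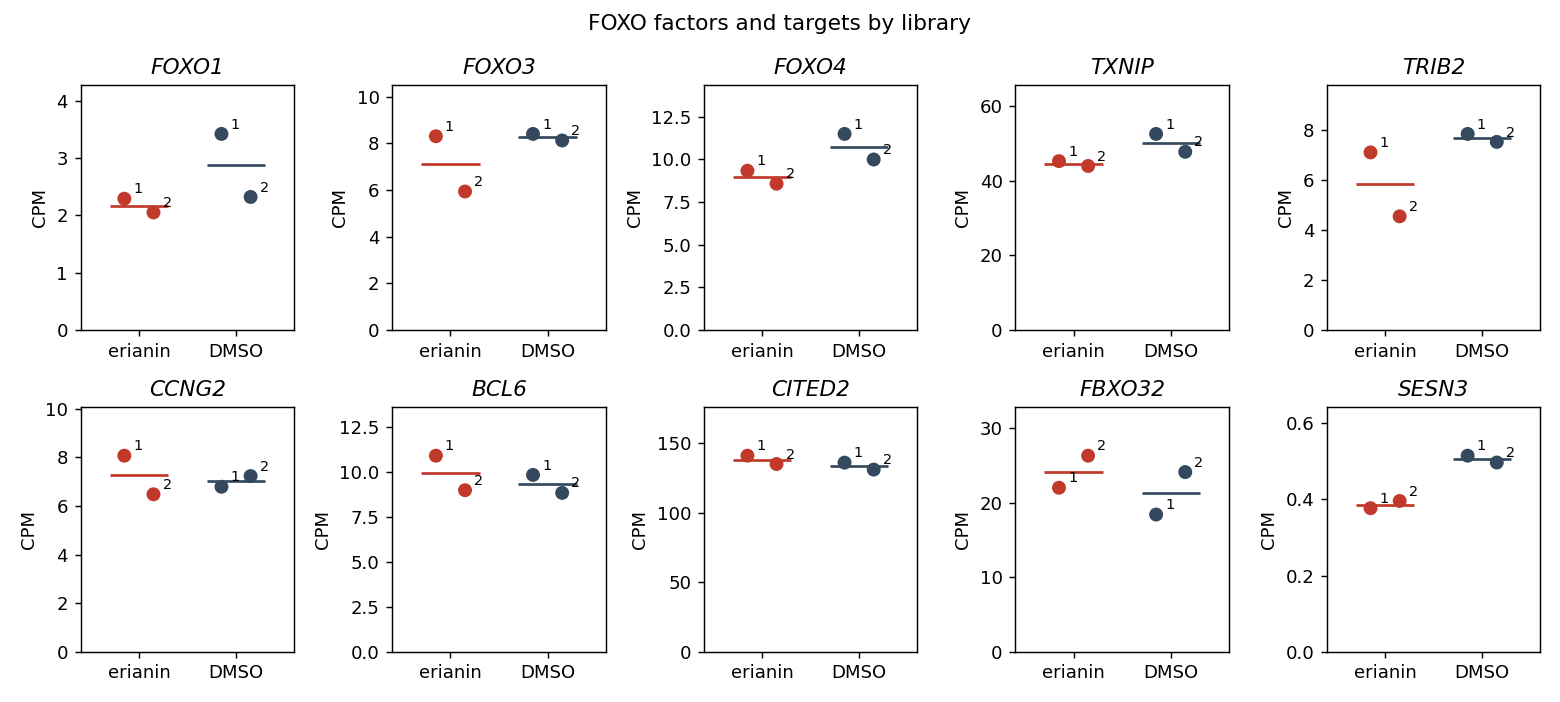
CPM of each of the 10 genes on a linear axis from 0, with erianin libraries in red on the left and DMSO libraries in dark blue on the right. Points carry the replicate number and lines are group means (n = 2 each). The groups do not overlap for FOXO1, FOXO4, TXNIP, TRIB2 and SESN3, and overlap for the other 5.

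The log2 fold changes of all 3 factors lay below 0, and none passed. FOXO4 (ENSG00000184481, GRCh38 chromosome X, 71096197 to 71103535, plus strand) had 9.34 and 8.58 CPM in erianin, against 11.5 and 10.0 CPM in DMSO. Both erianin libraries were below both DMSO libraries, by a margin smaller than the gap between the DMSO libraries. Its edgeR log2 fold change was -0.26 ± 0.17 (SE), adjusted p = 0.608, and it ran from -0.36 to -0.16 over 17 alternatives, after the GC and length correction at -0.36. FOXO4 has a GC content of 56.0%, and the 609 genes within 1 percentage point of that had a median of 0.13. This set, and the sets of like GC content given below for other genes, hold only genes with an average log2 CPM of 3 or more. FOXO1 and SESN3 lay well below that level, and FOXO3, CCNG2 and TRIB2 lay slightly below it.

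FOXO1 (ENSG00000150907, chromosome 13, 40469953 to 40666597, minus strand), the factor best known for insulin signalling, had 2.29 and 2.05 CPM in erianin, against 3.42 and 2.32 CPM in DMSO. The groups did not overlap, but DMSO replicate 2 lay close to erianin replicate 1. The log2 fold change was -0.40 ± 0.31 (SE), adjusted p = 0.640, and it was -0.10 without DMSO replicate 1 and -0.66 without DMSO replicate 2. After the GC and length correction it was -0.21. The 558 genes of like GC content had a median of -0.13. Exons of FOXO1 share 269 bases with LINC00598 on the same strand, which had 0 counts in both erianin libraries and in DMSO replicate 1 and 6 counts in DMSO replicate 2.

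FOXO3 (ENSG00000118689, chromosome 6, 108559835 to 108684774, plus strand), known for its part in stress resistance, had 8.31 and 5.94 CPM in erianin, against 8.41 and 8.13 CPM in DMSO. Erianin replicate 1 lay within the DMSO values and erianin replicate 2 was the low library. The log2 fold change of -0.21 ± 0.22 (SE), adjusted p = 0.723, was 0.01 once erianin replicate 2 was left out and -0.49 with that library as the only erianin sample.

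The difference between the erianin libraries for FOXO3 stood in 1 of the 2 rows that the count table holds for its gene ID. The files do not name the transcripts behind the rows. Row 2 of FOXO3 had 286 estimated counts in erianin replicate 1, 0 in erianin replicate 2, and 267 and 260 in DMSO. Row 1 had 243 and 330 in erianin and 288 and 247 in DMSO, so erianin replicate 2 was the highest there. With the larger row alone in place of the sum, the log2 fold change was 0.24. FOXO3 also shares 1928 aligned bases at 99.066% identity with its processed pseudogene FOXO3B on chromosome 17, which had 230 and 183 estimated counts in erianin and 295 and 262 in DMSO. Reads of FOXO3 and FOXO3B may have been divided by the authors' counting, and both values are uncertain to that extent. Summed with FOXO3B, a step chosen after the data were seen, FOXO3 had a log2 fold change of -0.25 ± 0.18 (SE), adjusted p = 0.628.

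**Figure D2:**
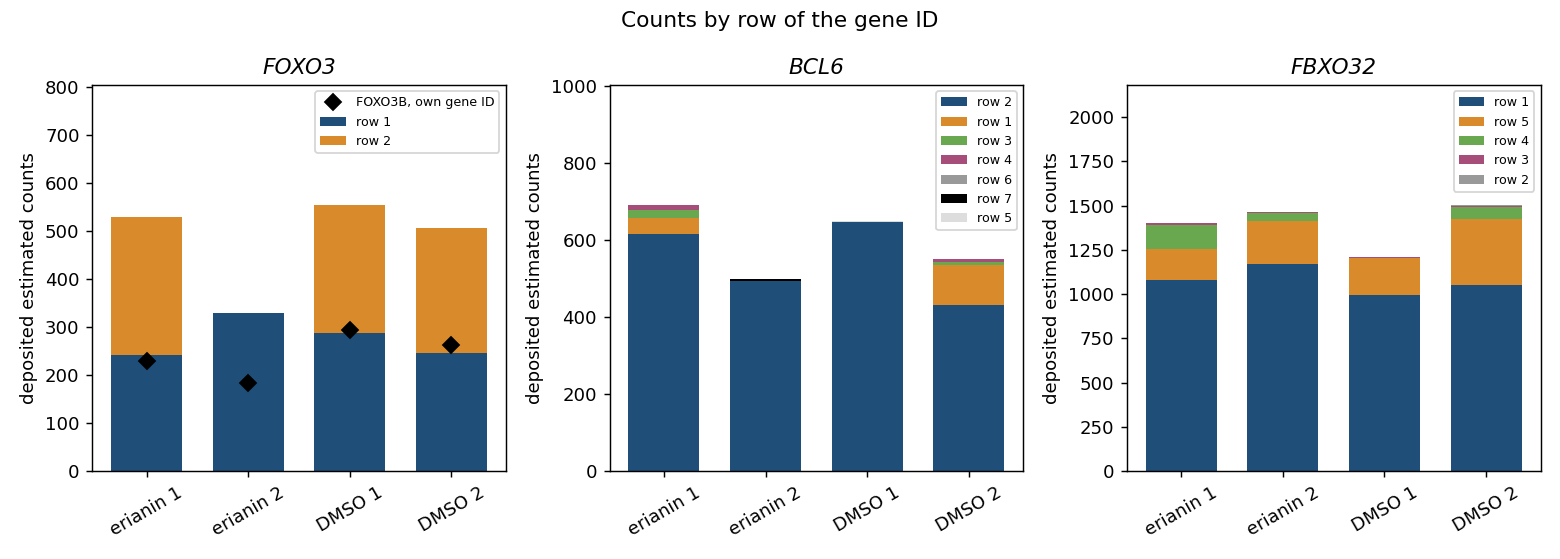
Deposited estimated counts in each library, stacked by row of the gene ID, for FOXO3, BCL6 and FBXO32 (linear axes, 1 bar per library, no error bars). Black diamonds give FOXO3B under its own gene ID. Row 2 of FOXO3 is at 0 in erianin replicate 2 and between 260 and 286 counts in the other libraries.

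CEP250, a centrosomal protein, was the gene closest to FOXO4, the factor with the highest level, in its pattern over the libraries. Its centred log2 CPM differed from that of FOXO4 by a root mean square of 0.0143 over the 4 libraries. CEP250 had 22.8 and 21.0 CPM in erianin, against 27.5 and 24.6 CPM in DMSO. Both erianin libraries were lower than both DMSO libraries, and the log2 fold change was -0.25 ± 0.14 (SE) with an edgeR adjusted p of 0.587. Likeness over 4 libraries is a description and says nothing of shared control.

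Among the target genes, TXNIP and TRIB2 were lower in both erianin libraries and did not pass. TXNIP (ENSG00000265972, chromosome 1, 145992435 to 145996600, minus strand) had 45.3 and 44.0 CPM in erianin, against 52.6 and 47.8 CPM in DMSO. The 2 erianin libraries were close to each other, and the DMSO libraries were further apart. The log2 fold change was -0.17 ± 0.12 (SE), adjusted p = 0.625. It was 0.01 after the GC and length correction, and the 552 genes within 1 percentage point of its GC content of 43.9% had a median of -0.21.

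TRIB2 (ENSG00000071575, chromosome 2, 12716889 to 12742734, plus strand) encodes a pseudokinase known to bind AKT and to restrain FOXO3. It had 7.11 and 4.55 CPM in erianin, against 7.85 and 7.53 CPM in DMSO. Erianin replicate 2 stood below the other 3 libraries, which lay near each other. The log2 fold change was -0.40 ± 0.25 (SE), adjusted p = 0.595, and it stayed at -0.37 after the GC and length correction. Without erianin replicate 2 it was -0.11. Without erianin replicate 1 it was -0.77 ± 0.20 (SE), adjusted p = 0.0305. In that fit 17.5% of all 18116 genes tested passed, where the lone erianin library is assumed to vary as the DMSO libraries do. TRIB2 was the only 1 of the 10 genes that passed in any of the alternatives run.

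SESN3 (ENSG00000149212, chromosome 11, 95165513 to 95232541, minus strand) had 0.377 and 0.396 CPM in erianin, against 0.515 and 0.497 CPM in DMSO. The groups did not overlap, but with 22 to 34 counts per library a difference of this size was not detectable. Its log2 fold change was -0.39 ± 0.64 (SE), adjusted p = 0.840, and it was -0.06 after the GC and length correction. It has the lowest GC content of the 10 genes, 37.1%, and the 271 genes of like GC content had a median of -0.28.

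CCNG2, BCL6, CITED2 and FBXO32 had log2 fold changes above 0, with overlapping groups; scaled by library totals alone, CCNG2, BCL6 and CITED2 lay below 0, at -0.04, -0.01 and -0.05. FBXO32 (ENSG00000156804, chromosome 8, 123497889 to 123541206, minus strand) had 22.0 and 26.3 CPM in erianin, against 18.4 and 24.1 CPM in DMSO. DMSO replicate 1 was the low library, and DMSO replicate 2 lay between the erianin libraries. The log2 fold change was 0.19 ± 0.18 (SE), adjusted p = 0.712, and it was 0.49 after the GC and length correction, adjusted p = 0.738. It was 0.40 without DMSO replicate 2, 0.30 without erianin replicate 1, 0.05 without erianin replicate 2 and 0.00 without DMSO replicate 1.

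For FBXO32 the count and FPKM tables put weight on different rows. Row 1 held between 69.8% and 82.1% of its counts. Row 5 held 12.5% and 16.5% in erianin and 17.2% and 24.9% in DMSO. In FPKM row 5 was the larger, at 2.98 and 4.26 in erianin and 3.50 and 6.61 in DMSO, against 2.2 and 2.46 in erianin and 1.99 and 2.21 in DMSO for row 1. A unit of FPKM stood for 57.7 counts in row 5 and 484.4 in row 1. Summed FPKM of FBXO32 was 6.85 and 7.31 in erianin and 5.59 and 9.76 in DMSO. On the log2(FPKM + 1) scale the fold change was -0.06, on the other side of 0 from that of the counts.

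CCNG2 (ENSG00000138764, chromosome 4, 77157151 to 77433388, plus strand), an atypical cyclin of cells that leave the cycle, had 8.07 and 6.48 CPM in erianin, against 6.79 and 7.23 CPM in DMSO. The DMSO values lay between the erianin values. Its log2 fold change was 0.05 ± 0.20 (SE), adjusted p = 0.938, and it was 0.34 after the GC and length correction. Its GC content is 40.8%, and the 548 genes of like GC content had a median of -0.26.

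BCL6 (ENSG00000113916, chromosome 3, 187721377 to 187745727, minus strand), a zinc finger repressor of transcription, had 10.9 and 8.98 CPM in erianin, against 9.83 and 8.83 CPM in DMSO. Its log2 fold change was 0.09 ± 0.18 (SE), adjusted p = 0.877. Row 1 of its 7 rows had 42 and 0 estimated counts in erianin and 0 and 103 in DMSO, so that its use differed within each group. Exons of BCL6 share bases with 2 antisense genes, of which AC072022.2 had 4 counts in DMSO replicate 2 and 0 in the other libraries.

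CITED2 (ENSG00000164442, chromosome 6, 139371807 to 139374620, minus strand) had 141 and 135 CPM in erianin, against 136 and 131 CPM in DMSO. It was measured most precisely of the 10 genes, with a log2 fold change of 0.05 ± 0.09 (SE), adjusted p = 0.856. The value ran from -0.05 to 0.11 over 17 alternatives.

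**Figure D3:**
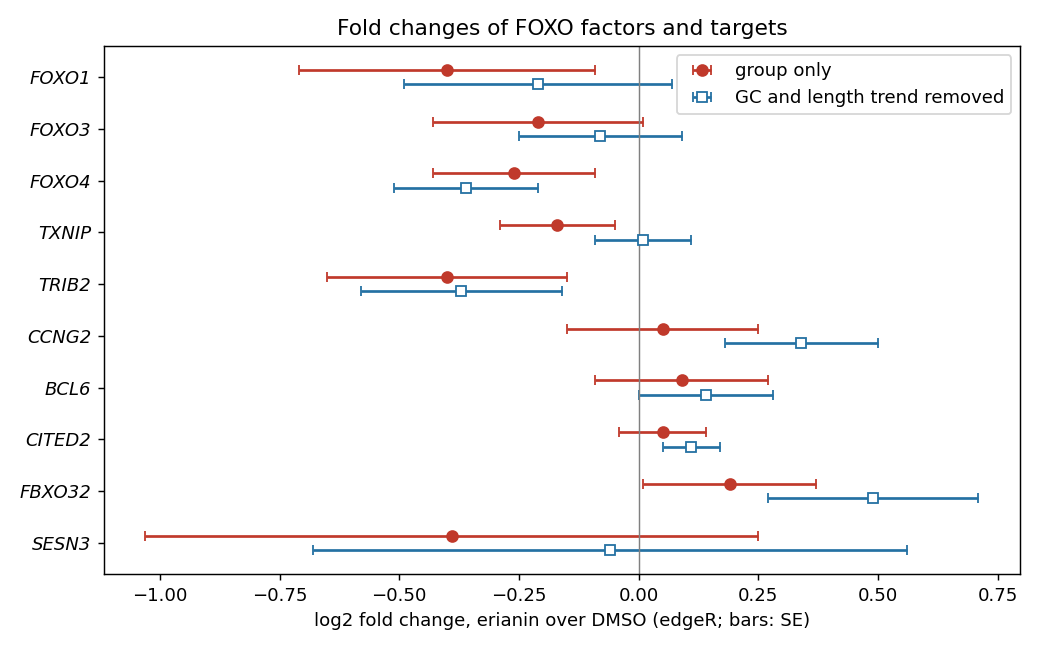
edgeR log2 fold change of erianin over DMSO for each of the 10 genes. Filled red circles are the fit with the group only and open blue squares the fit corrected for GC content and length (bars are standard errors). Values run from -0.40 to 0.19 in the first fit and from -0.37 to 0.49 in the second.

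The correction for GC content and length raised the log2 fold change of each of the 10 genes except FOXO4. The median of the 10 was -0.02 in that fit, against -0.19 in the fit with the group only, and 5 of the 10 lay below 0. FOXO4 moved from -0.26 to -0.36 and TRIB2 from -0.40 to -0.37, and FBXO32 and CCNG2 stood at 0.49 and 0.34. Against the median of genes of like GC content, TRIB2 lay lower by 0.41 on the log2 scale, FOXO4 by 0.39 and FOXO1 by 0.28, while FBXO32 lay higher by 0.39 and CCNG2 by 0.32. None of the 10 passed in that fit, and the lowest adjusted p of edgeR was 0.738.

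**Figure D4:**
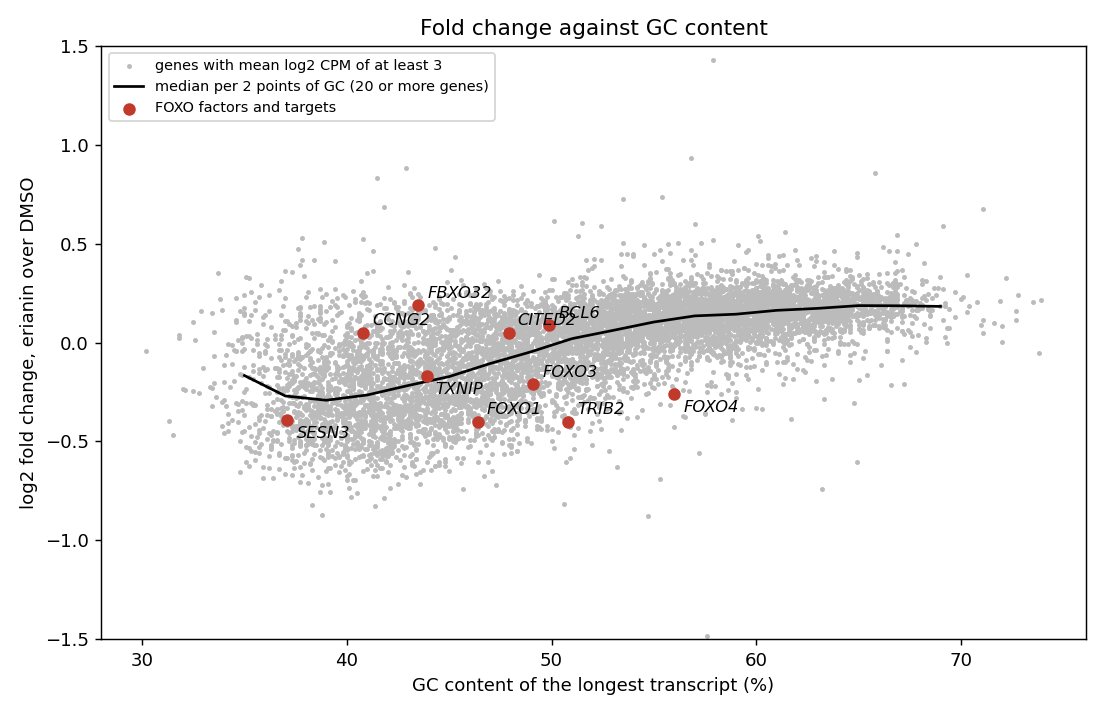
Log2 fold change of erianin over DMSO against GC content of the longest transcript, for the 7968 genes whose average log2 CPM is 3 or more (grey), their median per 2 points of GC (black line) and the 10 FOXO genes (red). The median line rises with GC content, and FOXO4, TRIB2 and FOXO1 lie below it while FBXO32 and CCNG2 lie above it. 2 genes beyond 1.5 in either direction fall outside the axis.

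A wider list of 44 genes reported as FOXO targets or family members, 40 of them with a gene ID, gave 0 higher and 0 lower of 39 tested. Of these 39, 5 had an unadjusted p under 0.05, all lower in erianin, where 5.89% of all genes did. Their median log2 fold change was -0.01, as for all genes, with 21 below 0. The list was not divided by whether FOXO factors are reported to raise or to lower a gene. Non-overlapping groups were seen in 10 of the 39 with erianin lower (24.4% of all genes) and in 8 with erianin higher (21.7%). RICTOR, a subunit of the kinase complex mTORC2 that phosphorylates AKT, had 5.13 and 5.47 CPM in erianin, against 8.04 and 8.82 CPM in DMSO. The groups were well apart, and the log2 fold change of -0.67 ± 0.19 (SE) had an adjusted p of 0.575. After the GC and length correction it was -0.35, RICTOR having a GC content of 36.5%. With the largest row of the gene ID alone it was -0.25 ± 0.49 (SE).

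RBL2, the pocket protein p130 of quiescent cells, had 14 and 9.11 CPM in erianin, against 16.9 and 15.9 CPM in DMSO, a log2 fold change of -0.50 ± 0.22 (SE). It was -0.23 without erianin replicate 2, -0.86 without erianin replicate 1, -0.27 after the GC and length correction and -2.23 with the largest row of the gene ID alone. SOD2, mitochondrial superoxide dismutase, had 22.5 and 19.4 CPM in erianin, against 29.8 and 26.2 CPM in DMSO. PRDX3, mitochondrial peroxiredoxin, had 58.0 and 43.4 CPM in erianin, against 73.3 and 61.3 CPM in DMSO. CAT, catalase, had 20.7 and 16.8 CPM in erianin, against 27.3 and 21.4 CPM in DMSO. For SOD2, PRDX3 and CAT the erianin libraries were lower than both DMSO libraries, and none passed, with log2 fold changes of -0.42, -0.41 and -0.38 that were -0.06, -0.24 and -0.25 after the GC and length correction. KLF6, a zinc finger factor, had one of -0.38 ± 0.16 (SE). Without erianin replicate 1, 7 of the 39 passed, SOD2, PRDX3 and RBL2 among them, where 17.5% of all genes passed, so this count is near the background. PRDX3 was -0.21 without erianin replicate 2, and CAT was -0.19 without DMSO replicate 1.

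Of 32 genes that act on FOXO proteins (kinases, phosphatases, 14-3-3 proteins, export and ubiquitin factors, acetyltransferases), 0 passed in either direction. Of these 32, 8 had an unadjusted p under 0.05, all lower in erianin, where 5.89% of all genes did. Of the 32, 27 had a log2 fold change below 0, against 51.3% of all genes, and the median was -0.27, against -0.01 for all genes. In 19 of the 32 both erianin libraries were below both DMSO libraries, as in 24.4% of all genes, and in 2, AKT1 and AKT2, both were above, as in 21.7% of all genes. Their median GC content was 43.5%, against 49.5% for all genes tested, and after the GC and length correction the median was -0.10. Set against the average of the DMSO libraries, the median over the 32 was -0.12 for erianin replicate 1, while for erianin replicate 2 it was -0.40. Without erianin replicate 1, 20 of the 32 passed, where 17.5% of all genes did.

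SGK3, a kinase related to AKT that also phosphorylates FOXO3, had 3.88 and 2.25 CPM in erianin, against 5.47 and 5.32 CPM in DMSO. MDM2, a ubiquitin ligase that acts on FOXO proteins and on p53, had 7.18 and 4.03 CPM in erianin, against 9.32 and 9.87 CPM in DMSO. STK4, the stress kinase MST1, had 10.9 and 7.07 CPM in erianin, against 13.8 and 13.3 CPM in DMSO. USP7, which removes ubiquitin from FOXO4, had 19.3 and 14.9 CPM in erianin, against 25.1 and 22.7 CPM in DMSO. In all 4 genes erianin replicate 2 was the lowest library, and their log2 fold changes were -0.81 ± 0.30, -0.77 ± 0.27, -0.59 ± 0.22 and -0.48 ± 0.17 (SE), each with an adjusted p of 0.575. Without erianin replicate 2 they were -0.47, -0.42, -0.31 and -0.31. Without erianin replicate 1 they were -1.27, -1.26, -0.95 and -0.69. After the GC and length correction they were -0.59, -0.46, -0.33 and -0.28, and none passed. AKT1 had 359 and 424 CPM in erianin, against 337 and 346 CPM in DMSO, and AKT2 had 251 and 296 CPM in erianin, against 233 and 246 CPM in DMSO. Their edgeR log2 fold changes were 0.20 ± 0.11 and 0.19 ± 0.11 (SE) with adjusted p of 0.576 and 0.579, and with the largest row of the gene ID alone that of AKT1 was -0.81. Both were 0.07 without erianin replicate 2 and 0.30 without erianin replicate 1. AKT1 and AKT2 have GC contents of 62.1% and 58.3%, and after the GC and length correction they were at 0.14 and 0.12.

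**Figure D5:**
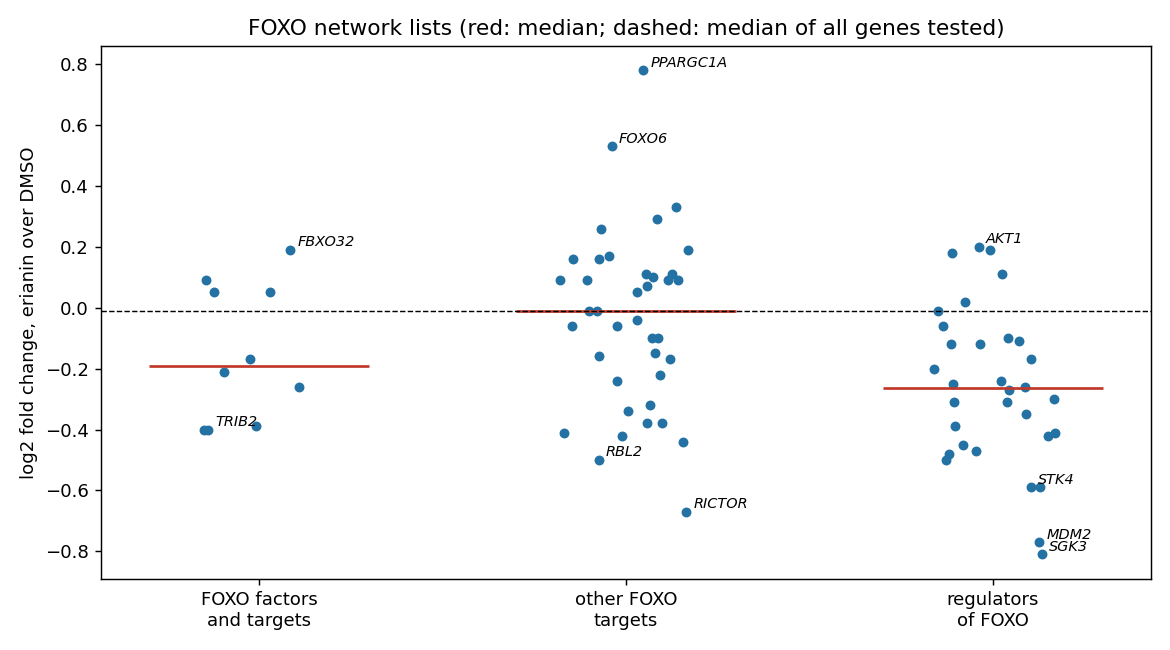
Log2 fold change of erianin over DMSO for each gene tested of the 10 FOXO factors and targets, of 39 other FOXO targets or family members and of 32 regulators of FOXO (points spread sideways for sight only). Red lines are the list medians, -0.19, -0.01 and -0.27, and the dashed line is the median of all genes tested, -0.01.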

How the data were processed

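The deposited count table and FPKM table have the same 107429 rows for 25798 gene IDs, of which 14076 occur in several rows. All rows with the same ID were added up. The authors deposited estimated counts: whole numbers without normalization, taken here as estimates because rows of 1 gene can hold very unequal values. Per the file headers the second table holds FPKM per library, as made by the authors. Tools listed without role or order, per the submitters' processing notes, are featureCounts 2.0.1, StringTie 2.2.1, STAR and fastp, with the build GRCh38. How strand and reads with several matches were treated is not given in the sources used here. In the plan for the tests, 1 row of counts per gene ID had been assumed.

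Genes were tested with edgeR 4.0.16 (R 4.3.3) with TMM factors (1.01 and 0.928 in erianin, 1.04 and 1.03 in DMSO), filterByExpr at its minimum count of 10, which left 17090 genes, and its quasi-likelihood test, adjusted by Benjamini-Hochberg at 0.05. Group was the only term, which leaves 2 residual degrees of freedom. With 2 against 2 libraries a permutation test could not pass 0.05 and none was run. CPM are counts scaled to a TMM-adjusted library of 1000000. Each standard error is the size of the log2 fold change over the root of its F statistic. Alternatives used DESeq2 1.42.0, limma 3.58.1 (voom, and log2 of FPKM plus 1 or 0.1), other factors and filters, each library left out, the replicate number as a block, and an offset for GC content and length (per library, natural splines with 5 degrees of freedom, fitted where the average log2 CPM was 3 or more). GC content, length and positions came from GENCODE release 29 on GRCh38, symbols from a table of gene names, with SOD2 named by GENCODE. Near copies were found with BLAST+ 2.17.0 (at least 200 bases at 95% identity). The edgeR and offset steps were tested on simulated data. The members and lists were chosen with earlier results of these data known. Named genes were the 10 members, the 6 other targets and 4 regulators with the smallest p, AKT1, AKT2, and the 3 genes closest in pattern to the FOXO factor with the highest FPKM, of which the closest is given and the others are not reported here.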

Additional observations from a re-analysis of the deposited data

How the results depend on the processing

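The number of the 10 FOXO genes that passed was 0 in each alternative except without erianin replicate 1, where it was 1 (leaving out 1 library gave 0 to 1). When each library was left out in turn, the other targets that passed numbered 0 to 7, the regulators 0 to 20 and all genes 24 to 3166, each highest without erianin replicate 1. The count over all genes, 7, was 2 with library totals alone, 21 with the DESeq2 Wald test, 0 with limma-voom, 2 with limma on either FPKM scale, and 0 with the largest row of each gene ID. With the replicate block it was 334, with 2 regulators, MDM2 at -0.83 (edgeR adjusted p = 0.0330) and YWHAZ, which is named because it passed there, and with the replicate block and the GC and length offset 14. The replicate numbers share only a number in the labels, and the deviations of same-numbered libraries correlated at 0.222 across 7986 genes. The median of the 10 genes ran from -0.27 to -0.05 with each library left out, and was -0.02 with the GC and length offset and -0.03 with the block as well. FOXO1, FOXO4, SESN3 and TRIB2 kept their direction in every alternative run that tested them. Values near 0 changed sign. Leaving out 1 library gave -0.49 to 0.01 for FOXO3, -0.12 to 0.21 for CCNG2 and -0.07 to 0.22 for BCL6. Library totals alone, which moved the median of all genes to -0.11, gave -0.04 for CCNG2, -0.01 for BCL6 and -0.05 for CITED2. The GC and length offset gave 0.01 for TXNIP, also with the replicate block. The FPKM scales gave -0.05 for CITED2 and -0.06 for FBXO32. The largest row of each gene ID gave 0.24 for FOXO3, -0.03 for CCNG2 and -0.81 for AKT1. The causes were not tested, other than what each construction states. At 22 to 34 counts per library, depth limits SESN3 most.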

Other observations

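FOXO6, the remaining member of the FOXO family and expressed mainly in brain, was chosen for mention after its values had been seen. It had 3.44 and 4.16 CPM in erianin, against 3.17 and 2.08 CPM in DMSO, a log2 fold change of 0.53 ± 0.30 (SE) and an adjusted p of 0.579 from edgeR, with the opposite sign to FOXO1, FOXO3 and FOXO4. Its transcript has a GC content of 70.6%, and after the GC and length correction the log2 fold change was 0.35. Of the wider target list, PLK1, a mitotic kinase, and FOXM1, a forkhead factor of dividing cells, had the highest levels, at means of 112 and 50.3 FPKM in erianin and 111 and 49.6 FPKM in DMSO. FASLG, PCK1, G6PC1 and TRIM63, targets known from immune cells, liver or muscle, had no gene ID in the tables used here.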
